A study of Fukomys damarensis and Heterocephalus glaber and Mus musculus with 160 samples.

Results

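The data described here are 6 of the 116 peak lists of a series on regulatory chromatin in rodents: the H3K4me3 lists of guinea pig (Cavia porcellus) liver, 3 libraries, and guinea pig heart, 3 libraries, chosen by the species, tissue and antibody in their titles. The 3 animals, numbered 7, 8 and 9, gave both organs, and each organ of each animal gave 1 library. All were untreated wild-type adult males of 2.3 months, and no strain was labelled. Chromatin was crosslinked in diced whole organs, the livers after perfusion with saline and the hearts after removal of clots, so each list averages over all cell types of the organ, and in such bulk samples fewer cells of a type and less of the mark per cell cannot be told apart. The liver libraries carry the codes do2342, do2346 and do2350, and the heart libraries do17592, do17607 and vl0066. The labels say that samples were assigned to batches at random but give no batch, and do not say what the codes stand for. The codes of the tissues form separate runs, so tissue and run of codes cannot be told apart. No annotation of the guinea pig build was used, so the tissues were not checked against marker genes, and regions are named by their position on the scaffolds of Cavpor3.0, counted from 1.

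H3K4me3, trimethylation of lysine 4 on histone H3, is laid down around the start sites of genes whose promoters are open to transcription. Narrow regions of it mark most promoters used in any cell, and broad ones are known at genes that define the identity of a cell. H3K27ac is an acetyl mark of active promoters and enhancers, and H3K4me1 is found at enhancers and on the flanks of promoters, also where these are not active. A promoter used by the liver, such as that of a plasma protein gene, carries H3K4me3 in hepatocytes, and promoters of the contractile apparatus carry it in cardiac muscle.

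The 6 lists held 116551 peaks. Liver lists had 16530 peaks in animal 7, 15898 in animal 8 and 14782 in animal 9. Heart lists had 21481, 24629 and 23231 peaks in the same order of animals. Every heart list was longer than every liver list. An exact permutation test of 3 liver against 3 heart libraries cannot go below a p of 0.1. Heart lists also covered more of the genome, with 24.7, 22.3 and 26.0 Mb against 19.3, 17.5 and 15.2 Mb. Fold enrichment, the authors' ratio of a peak over background, was not tested between lists. Where folds of both tissues are printed side by side, they describe lists of unlike median fold. The median fold of the list was 20.6, 16.5 and 15.4 in liver and 30.5, 22.2 and 24.1 in heart. The shortest peak measured 297, 287 and 295 bases in liver and 221, 162 and 221 bases in heart, so the tissues also differed in the smallest interval their lists could hold. Read depth is unknown, since a peak list carries no read numbers, and the part of depth in these differences was not tested.

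Peaks that overlapped by at least 1 base were joined over the 6 lists, which gave 25570 regions. Most liver H3K4me3 lay where heart had it too. A region counted as shared when at least 2 lists of each tissue had a peak there, and 12764 regions (49.9%) were shared, of which 11620 were found in all 6 lists. Heart-only regions, with peaks in at least 2 heart lists and in no liver list, numbered 5876 (23.0%). Liver-only regions, defined likewise, numbered 1316 (5.15%), so that there were 4.47 heart-only regions for each liver-only region. The other 5614 regions (22.0%) fell in no class, and 4431 of them came from a single list. Of the regions found in all 3 heart lists, 926 were seen in 1 liver list and 1013 in 2. Of those found in all 3 liver lists, only 45 were seen in 1 heart list and 76 in 2.

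The share of a library's own peaks that fell in regions of its tissue alone was close to constant among animals. In liver it was 8.13% in animal 7 (Wilson 95% interval 7.72% to 8.56%), 8.56% in animal 8 (8.14% to 9.01%) and 8.15% in animal 9 (7.71% to 8.60%). In heart it was 26.2% (25.6% to 26.8%), 25.3% (24.7% to 25.8%) and 25.3% (24.7% to 25.9%). The intervals cover counting error only. The 2 tissues did not overlap, with a mean of 8.28% ± 0.244 in liver and 25.6% ± 0.555 in heart (SD, n = 3 each, two-sided exact permutation p = 0.1).

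**Figure D1:**
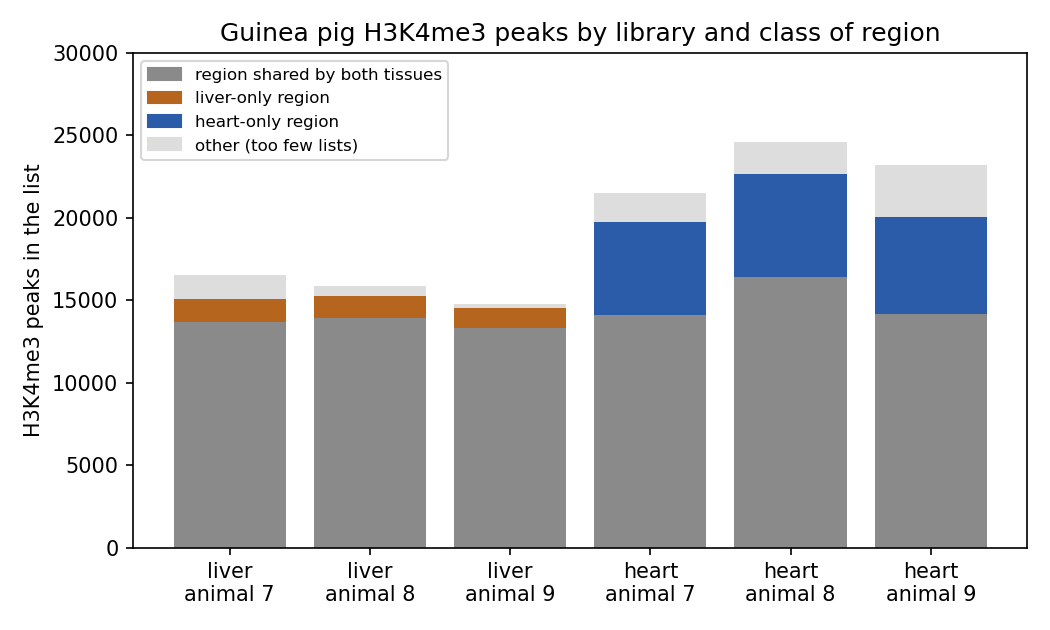
Number of H3K4me3 peaks in each of the 6 lists (vertical axis), split by the class of the region they fall in. The shared part is between 13326 and 16428 peaks in every list, and the heart lists add 5635 to 6219 heart-only peaks where the liver lists add 1204 to 1361 liver-only peaks.

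The excess of heart-only regions was not found in lists of equal length. When every list was limited to its 14782 peaks of lowest p, the length of the shortest list, 1688 regions were liver-only and 1761 heart-only. The share of a library's peaks in regions of its own tissue was then 11.1% ± 0.0986 in liver and 10.8% ± 1.05 in heart (SD, n = 3 each, exact permutation p = 1.0). With peaks of −log10 q of at least 4 the numbers were 1244 and 5517.

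In the deposited lists, one-tissue regions of liver and of heart differed in form. Liver-only regions covered a median of 1114, 950 and 992 bases in the liver lists of animals 7, 8 and 9, and heart-only regions covered 555, 451 and 580 bases in the heart lists. Shared regions covered 1197, 1105 and 1015 bases in liver and 1417, 1299 and 1449 bases in heart. In every list the one-tissue median was below the shared one, by a wider margin in each heart list than in any liver list. Of liver-only regions, 33.2%, 27.7% and 30.5% had a fold above the median of their list. Of heart-only regions, 6.98%, 9.94% and 9.18% had. These values describe peaks that the classes were made from, and no test was made on them. The heart lists were also longer and held shorter smallest peaks. With equal numbers of peaks per list 1761 regions were heart-only in place of 5876, and their widths and folds were not compared.

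The strongest liver-only regions were among the higher peaks of their lists. Among the 954 regions with a peak in all 3 liver lists and in no heart list, the 8 of highest mean fold had means from 69.6 to 80.9. The first lay at DS562867.1:9997792-10002145, where liver peaks covered 3831, 4354 and 3791 bases with folds of 95.5, 76.2 and 70.9. Its fold was above that of 96.8%, 98.6% and 99.1% of the peaks in the 3 lists. The region at DS562873.1:3438803-3445082 covered 5833, 5591 and 5315 bases with folds of 115, 58.2 and 52.2. It was among the 4 widest liver-only regions as well as among the 8 of highest fold. At DS562927.1:6145772-6148803 the folds were 99.1, 47.5 and 74.0 over 2728, 2913 and 2630 bases. Animal 7 had the highest fold at each of the 8 regions. Its list also had the highest median fold of the liver lists.

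The widest liver-only region was DS563100.1:221173-228441, with 7266, 5962 and 5531 bases in animals 7, 8 and 9, a mean of 6253 ± 903 (SD, n = 3). DS563064.1:253016-259526 followed with 6082, 6511 and 5211 bases, then DS562873.1:3438803-3445082, given above, and DS562869.1:7087451-7093974 with 6364, 5137 and 4963 bases. H3K27ac, which was not used to choose these regions, had a peak in all 3 liver lists at each of the 11 liver-only regions named by fold or width. In heart it had none at 10 of the 11, and all 3 heart lists had H3K27ac at DS562908.1:12489672-12492994, where a mean of 330 bases of the region was covered against 3308 in liver. Over all liver-only regions an H3K27ac list had a peak at a mean of 98.7% in liver and 14.7% in heart.

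Among the 4367 regions with a peak in all 3 heart lists and in no liver list, 1 region was first by fold and by width. At DS562886.1:6079416-6086206 heart H3K4me3 covered 6744, 6228 and 6680 bases with folds of 100.4, 115 and 105. H3K27ac covered a mean of 6497 bases there in heart and none in liver. The liver lists of H3K4me1 all had a peak at this region, over a mean of 2745 bases, and the heart lists had none. At DS562927.1:4527859-4531201 heart peaks covered 3134, 2862 and 3210 bases with folds of 125, 87.5 and 82.6. At DS562856.1:38325778-38330949 the folds were 130.0, 59.6 and 98.8, and liver H3K4me1 covered a mean of 2046 bases where heart H3K4me1 covered 534. At DS562860.1:49656028-49660015 the folds were 93.1, 79.6 and 88.5, with liver H3K4me1 over a mean of 2281 bases. Over the 8 heart-only regions of highest fold the mean folds ranged from 72.0 to 107.

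The next widest heart-only regions had lower folds than the first. DS562861.1:47126499-47132952 covered 6453, 5787 and 6358 bases with folds of 27.3, 37.2 and 43.1, and DS562860.1:12827603-12833805 covered 5879, 5398 and 5884 bases with folds of 21.9, 26.3 and 17.4. At the latter, liver H3K4me1 covered a mean of 4374 bases with no liver H3K27ac. DS562897.1:12619163-12624952, with 5616, 5790 and 5522 bases, had no H3K4me1 peak in any liver list and is the exception among the 11 heart-only regions named. At the other 10, between 1 and 3 liver lists of H3K4me1 had a peak. Over all heart-only regions a liver list had one at a mean of 67.0%. Among those in all 3 heart lists with mean folds from 16.2 to 107 the mean was 78.3%.

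The other 2 marks were then read at all one-tissue regions, in the same animals. Liver-only H3K4me3 regions carried H3K27ac in liver nearly without exception. An H3K27ac peak was present in liver at 98.8%, 98.5% and 98.7% of the 1316 liver-only regions in animals 7, 8 and 9. In heart the shares were 14.1%, 16.6% and 13.4%, lower than in liver by 84.0 ± 1.82 percentage points (SD, n = 3 animals, 3 of 3 in this direction). Heart-only regions had H3K27ac in heart at 78.9%, 66.9% and 57.7% and in liver at 39.8%, 32.2% and 38.8%, a difference of 30.9 ± 10.6 points (3 of 3 animals). At shared regions the means were 98.3% in liver and 95.5% in heart. The heart H3K27ac library of animal 9 gave the lowest heart share at all 3 classes. Its list was the shortest of the 6 H3K27ac lists, with 79688 peaks. With equal numbers of H3K27ac peaks per list the heart shares at heart-only regions were 75.7%, 64.01% and 57.7%.

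H3K4me1 went another way at heart-only regions. It was present in liver at 71.1%, 66.4% and 63.4% of them and in heart at 45.6%, 47.8% and 58.0%, so that the tissue without H3K4me3 had more H3K4me1, by 16.5 ± 10.2 points (SD, n = 3, 3 of 3 animals). At liver-only regions it was the liver that had more, with 77.3%, 67.9% and 59.3% against 17.9%, 20.5% and 24.0% in heart, a difference of 47.4 ± 12.04 points (3 of 3 animals). When the overlap had to reach 50% of the shorter interval, the difference was 25.3 points, from 42.3% in liver and 17.1% in heart. Liver H3K4me1 was also the more frequent at shared regions, at 91.1% ± 3.46 against 69.8% ± 4.11 in heart. The 4 differences between tissues each had a two-sided exact sign-flip p of 0.25, the smallest that 3 animals allow, and the p adjusted over the 4 is also 0.25.

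**Figure D2:**
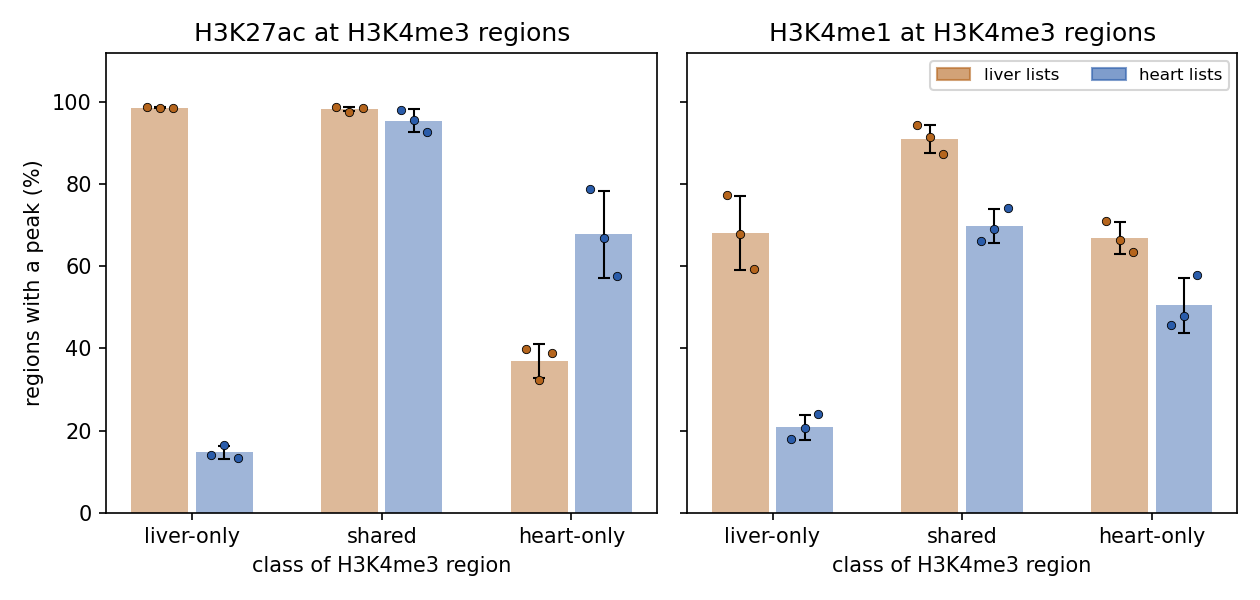
Percent of liver-only, shared and heart-only H3K4me3 regions with an H3K27ac peak (left) or H3K4me1 peak (right) in liver and heart lists. Bars are means, error bars SD and points the 3 animals. H3K27ac falls to 14.7% in heart at liver-only regions but is at 37.0% in liver at heart-only regions, where liver H3K4me1 reaches 67.0%.

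The state of a region in the tissue that lacked H3K4me3 therefore differed between the classes. Neither H3K27ac nor H3K4me1 was present in heart at 77.4%, 74.2% and 73.02% of liver-only regions in animals 7, 8 and 9. Neither was present in liver at 20.0%, 24.9% and 24.3% of heart-only regions. The animals' values did not overlap, and the difference was 51.8 ± 4.85 points (SD, n = 3, two-sided exact sign-flip p = 0.25, the smallest possible). H3K4me1 without H3K27ac, the combination of primed enhancers, stood in liver at 39.99% ± 2.97 of heart-only regions and in heart at 10.5% ± 2.75 of liver-only regions. This comparison was chosen after its values were seen. With equal numbers of H3K4me3 peaks the shares with neither mark were 59.3% ± 0.633 and 13.0% ± 2.57, and with equal numbers of H3K27ac and of H3K4me1 peaks they were 76.9% ± 1.07 and 29.2% ± 2.74 (n = 3).

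These shares varied with fold among heart-only regions. The 4367 regions in all 3 heart lists were divided by mean fold into 4 groups of equal size. H3K27ac in heart was present at 63.3% ± 9.89 of the lowest group, with mean folds up to 7.35, and at 87.0% ± 9.72 of the highest, with mean folds from 16.2 to 107 (SD, n = 3 animals). H3K4me1 in liver was present at 61.8% ± 2.86 of the lowest and 78.3% ± 3.83 of the highest group. H3K27ac in liver varied less, with 37.0% ± 3.25 and 34.6% ± 5.99. In the same division of the 954 liver-only regions, heart H3K27ac was present at 20.6% ± 1.05 of the lowest and 9.24% ± 1.11 of the highest group, and liver H3K27ac at 98.5% and 100%. The median width was 385 bases in the lowest and 1102 in the highest group of heart-only regions, and 623 and 2595 bases in those of liver-only regions.

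Width was compared at the 11620 regions found in all 6 lists, as the number of bases that the peaks of a library covered. Median widths were 1258, 1160 and 1035 bases in liver and 1463, 1344 and 1493 bases in heart for animals 7, 8 and 9. Every heart library was wider than every liver library, by 0.32 on the log2 scale of the medians (1.25 times, two-sided exact permutation p = 0.1). Peak width depends on depth as well as on the chromatin, so the test for single regions used widths centred on the median of each library. Across these regions the log2 widths of 2 libraries correlated with r from 0.90 to 0.91 within liver, from 0.94 to 0.95 within heart and from 0.66 to 0.72 between the tissues, given as a description over 11620 regions that share their libraries.

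Relative to their libraries, 1894 regions were wider in liver and 1640 were wider in heart (limma, Benjamini-Hochberg adjusted p below 0.05), which is 30.4% of the regions tested, 16.3% in the direction of liver and 14.1% in that of heart. A difference of at least 2 times was called at 329 and 423 of them. Without centring the calls were 492 wider in liver (4.23%) and 3454 wider in heart (29.7%). Leaving out 1 heart library lowered the number called, to 2214 without animal 7, 2289 without animal 8 and 2313 without animal 9. The share of calls wider in liver stayed between 49.6% and 53.8% when any 1 of the 6 libraries was left out.

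**Figure D3:**
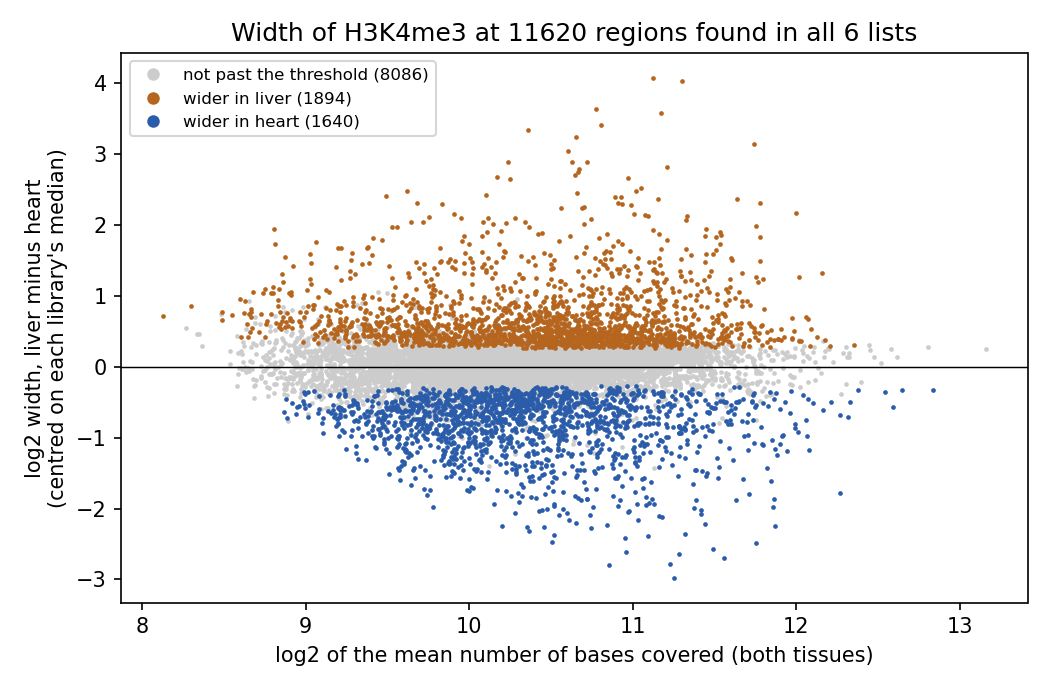
Difference in log2 width between liver and heart, centred on each library's median (vertical axis), against the log2 mean width (horizontal axis) for 11620 regions found in all 6 lists. The 1894 regions called wider in liver and the 1640 called wider in heart lie above and below 0, and the differences run from −2.97 to 4.08. The shortest peaks were shorter in the heart lists, so relative width could fall lower in heart.

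The 1640 regions wider in heart all had 3 heart widths above all 3 liver widths in bases (14.1% of the regions tested), with a median difference, liver minus heart, of −836 bases. Of the 1894 wider in liver, 759 had liver widths that all exceeded the heart widths in bases (6.53% of the regions tested), and the median difference was 189 bases. The calls used centred widths, and centring had removed the greater width of the heart libraries. A region called wider in heart was thus bound to be wider there in bases, and a region called wider in liver was not. Among those that differed at least 2 times after centring, the median difference was 1089 bases for the 329 of liver and −1424 bases for the 423 of heart. Without centring, a difference of at least 2 times was called at 197 regions for liver and 900 for heart. The extra bases could lie at both ends of a region or at 1 end. At least 80% of them lay at 1 end in 66.6% of the 329 regions and in 43.0% of the 423 regions. The strand of the genes there is unknown, so the ends cannot be named as upstream or downstream.

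The largest differences in the direction of liver were regions that were wide domains in liver and short peaks in heart. At DS562877.1:8358572-8363185 liver H3K4me3 covered 4614, 4124 and 3712 bases and heart 433, 266 and 248 bases, a log2 difference of 4.08 ± 0.20 (SE, limma adjusted p = 2.7e-05). The folds were 117, 42.7 and 50.5 in liver and 11.1, 9.13 and 5.44 in heart. H3K27ac covered a mean of 4501 bases in liver and 59.7 in heart, with a peak in 1 of 3 heart lists. At DS562864.1:1159003-1164258 the widths were 5095, 5047 and 3907 bases in liver and 221, 480 and 421 in heart, a difference of 4.03 ± 0.28 (limma adjusted p = 9.8e-05). Without the liver library of animal 8 this difference was 2.07 (limma adjusted p = 0.0067). At DS562873.1:27140604-27145011 they were 4139, 4222 and 4039 against 558, 212 and 684 bases, a difference of 3.58 ± 0.36 (limma adjusted p = 4.1e-04). No overlap between the tissues was a condition for naming these regions. Without centring, the difference at DS562877.1:8358572-8363185 was 3.76. The shortest peaks of the lists were 221, 162 and 221 bases in heart and 297, 287 and 295 in liver. Relative width could thus fall lower in heart, and the part of this in the size of the differences was not tested.

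The remaining regions completed the 6 named for liver. DS562862.1:51622169-51625706 had liver widths of 3371, 3409 and 2712 and heart widths of 230, 241 and 568 bases, DS562860.1:9332018-9336127 had 2674, 3618 and 3299 against 464, 281 and 397, and DS562857.1:63947884-63950460 had 2308, 2577 and 2111 against 396, 257 and 231. DS562860.1:9332018-9336127 had liver folds of 16.0, 18.8 and 11.5, where the list medians were 20.6, 16.5 and 15.4. H3K27ac had peaks in all 3 liver lists at the 6 regions, in 1 heart list at 5 of them and in no heart list at DS562860.1:9332018-9336127.

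The largest differences in the direction of heart were wide domains in heart and short peaks in liver. At DS562866.1:37939674-37944605 heart H3K4me3 covered 4879, 3859 and 4461 bases and liver 707, 379 and 332, a log2 difference of −2.97 ± 0.21 (SE, limma adjusted p = 1.1e-04). At DS562910.1:2105800-2109247 heart covered 3343, 3168 and 3448 and liver 428, 326 and 397 bases, a difference of −2.80 ± 0.12 (limma adjusted p = 2.2e-05). At DS562962.1:4151986-4157668 heart covered 5045, 5199 and 5683 and liver 737, 1033 and 370 bases, a difference of −2.70 ± 0.29 (limma adjusted p = 5.8e-04). The last had folds of 167, 132 and 120.1 in heart against 9.01, 8.65 and 4.28 in liver. Here too, no overlap between the tissues was a condition for naming a region. Without centring, the difference at DS562866.1:37939674-37944605 was −3.29.

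The other 3 regions named for heart were DS562873.1:22690284-22694796, DS562868.1:497095-501816 and DS562857.1:20204957-20209094. Their mean widths in heart were 4295 ± 257, 4390 ± 304 and 3509 ± 671 bases and in liver 507 ± 119, 604 ± 252 and 464 ± 108 bases (SD, n = 3). The first of them was no longer past the threshold with equal numbers of peaks per list (−1.89, limma adjusted p = 0.082, the highest of its 11 alternatives, of which the lowest was 1.9e-05). All 6 regions named for heart had H3K27ac and H3K4me1 peaks in all 3 liver lists, with H3K27ac over a mean of 551 to 1921 bases. This is near the share over all 11620 regions, of which a mean of 0.734% lacked an H3K27ac peak in liver and 7.80% an H3K4me1 peak.

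**Figure D4:**
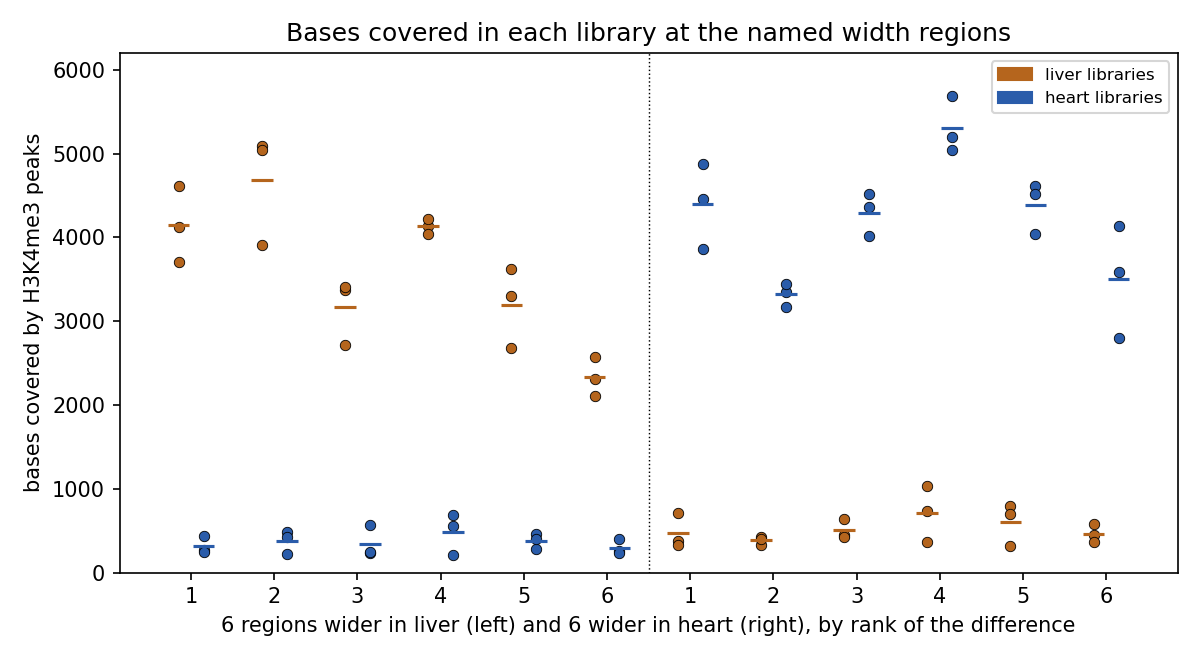
Bases covered by H3K4me3 peaks (vertical axis) in each library at the 6 regions with the largest difference in the direction of liver and the 6 in that of heart. Points are libraries and lines are means of 3. The 12 regions were chosen among those whose liver and heart points do not overlap.

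The bases of H3K27ac inside these regions, in other libraries of the same animals, differed in the same order as the width of H3K4me3. H3K27ac and H3K4me1 were counted only within the bounds of the joined H3K4me3 region. The values are therefore not full widths of those marks, and the region limits them. Where both tissues had an H3K27ac peak, the median log2 ratio of the bases it covered, liver over heart, was 0.29, 0.37 and 0.53 in animals 7, 8 and 9 at the 1894 regions wider in liver. It was −0.11, −0.23 and 0.00 at the 1640 regions wider in heart, and 0.07, 0.10 and 0.27 over all 11620 regions tested. In each animal the value for regions wider in liver lay above that for all regions, and the value for regions wider in heart below it. H3K4me1 had the opposite order, with means of 0.12 ± 0.27 at regions wider in liver, 0.75 ± 0.17 at regions wider in heart and 0.50 ± 0.18 over all regions (SD, n = 3 animals). Regions wider in liver lacked an H3K27ac peak in heart more often than all regions did, at a mean of 7.62% against 3.07%. These are descriptions with no test.

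Fold at regions in all 6 lists was described relative to the median of the same regions in the same list. At 82.8% of the 11620 regions the mean relative folds of the tissues were within 2 times of each other. Every liver list was at least 4 times every heart list at 98 regions (0.843%), and every heart list at least 4 times every liver list at 14 regions (0.12%). The medians divided by were 31.7, 22.7 and 19.3 in liver and 69.2, 58.3 and 61.6 in heart. The 5th percentile of fold was 4.34, 4.26 and 4.34 in liver and 4.73, 4.56 and 4.39 in heart. Relative fold could therefore fall lower in heart, and the part of this in the 2 counts was not tested. The 3 most extreme in each direction were picked out after their values were seen. DS562908.1:10382435-10385486 had folds of 152, 81.3 and 69.1 in liver and 8.78, 6.69 and 5.20 in heart. The other 2 in the direction of liver, DS562873.1:27140604-27145011 and DS562862.1:51622169-51625706, are also among the 6 named by width. DS562861.1:12437712-12440782 had folds of 6.72, 4.01 and 5.37 in liver and 181, 133 and 130 in heart. DS562962.1:4151986-4157668 and DS562972.1:1805924-1808254 followed, the latter with 6.84, 6.52 and 5.58 in liver and 140, 116 and 98.5 in heart.

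Most broad regions were broad in 1 tissue. A mean width of at least 4000 bases was reached at 113 regions of liver and 212 of heart, and 44 regions were broad in both. These widths were not centred, and median width at regions in all 6 lists was 1.25 times greater in heart. The part of this shift in the counts of broad regions was not tested. The 44 regions broad in both are 38.9% of the broad regions of liver and 20.8% of those of heart. Of the 113 of liver, 84 were in all 6 lists and 26 had no peak in any heart list. Of the 212 of heart, 180 were in all 6 lists and 20 had no peak in any liver list. So most broad regions had some H3K4me3 in the other tissue too.

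The summit, the highest point of a peak, lay at nearly the same base in libraries of 1 tissue. Over the 11620 regions the median distance between the summits of 2 liver libraries was 33.0, 35 and 37.0 bases, and between 2 heart libraries 36.0, 29.0 and 39.0 bases. Between a liver and a heart library it ranged from 47.0 to 59.0 bases over 9 pairs. All 9 exceeded all 6 distances within a tissue. The mean distance was 34.8 bases within a tissue and 53.8 bases between tissues, a difference of 18.9 bases (two-sided exact permutation p = 0.1). The liver and heart of the same animal lay within this range, at 48.0, 57.0 and 56.0 bases. In the 7387 regions with a single peak in each list the difference was 16.8 bases.

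**Figure D5:**
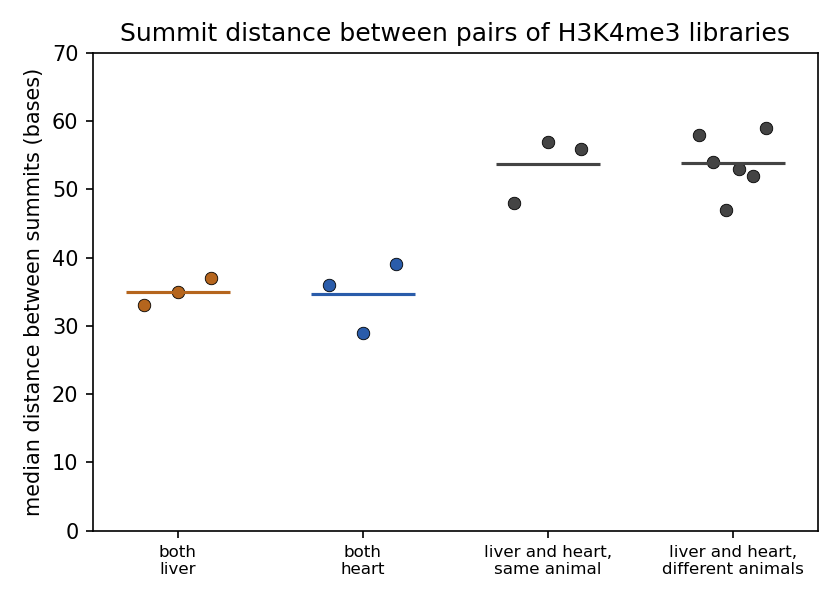
Median distance in bases between the H3K4me3 summits of pairs of libraries, over 11620 regions. Points are pairs and lines their means, and the 9 pairs of different tissues (47.0 to 59.0 bases) all lie above the 6 pairs of 1 tissue (29.0 to 39.0 bases).

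The 3 liver summits all lay on 1 side of the 3 heart summits at 3468 regions (29.8%), and at 144 regions (1.24%) the 2 sets were at least 500 bases apart. The largest gap, 2555 bases, was at DS562916.1:8813970-8818323, with liver summits at 8814592, 8814609 and 8814516 and heart summits at 8817216, 8817196 and 8817164. Peaks covered 3208, 2629 and 2150 bases in liver there and 4113, 3910 and 3763 in heart, of 4354 in the region. At DS562916.1:9984939-9990507 the gap was 2195 bases, with summits at 9988658, 9988622 and 9988652 in liver and 9986427, 9986411 and 9986415 in heart. At DS563029.1:1314374-1318574 it was 2052 bases, between 1317580, 1317718 and 1317712 in liver and 1315524, 1315472 and 1315528 in heart. The fourth, DS562862.1:51622169-51625706 with a gap of 2027 bases, is also named above for a width difference, and its summits were at 51622978, 51623044 and 51622977 in liver and 51625157, 51625177 and 51625071 in heart.

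Compared with the other marks of the same animals, fewer H3K4me3 peaks lacked a counterpart in the other tissue. With equal lists of 14782 peaks, 16.0% ± 0.608 of liver H3K4me3 peaks overlapped no peak of a heart list, as a mean over heart lists (SD, n = 3), against 41.3% ± 1.97 for H3K27ac and 78.0% ± 2.11 for H3K4me1. For heart peaks the values were 17.0% ± 1.84, 35.8% ± 3.24 and 74.5% ± 0.556. Replicates of 1 tissue differed too: the mean share without a peak in another list of the same tissue was 7.48% in liver and 4.73% in heart for H3K4me3, 12.8% and 18.2% for H3K27ac, and 42.1% and 47.6% for H3K4me1. In the deposited lists the shares without a peak in the other tissue were 11.9% in liver and 39.6% in heart for H3K4me3. They were 63.5% and 54.8% for H3K27ac, and 66.1% and 53.4% for H3K4me1. The libraries of H3K4me3 lay below those of either other mark in both tissues (exact permutation p = 0.1 each, adjusted p = 0.12 over 6 comparisons). The mouse lists came from untreated wild-type C57BL/6J adult males of 2 months, and 1 of the heart lists is labelled with 3 animal numbers. Unlike those of the guinea pig, mouse liver and heart lists carry different animal numbers. Mouse H3K4me3 gave 16.1% ± 1.04 in liver (n = 4) and 13.0% ± 2.53 in heart (n = 6), which differed from the guinea pig by −0.08 points in liver (exact permutation p = 0.857) and by 3.95 in heart (p = 0.0595, adjusted p = 0.12). With the lists as deposited the guinea pig liver value was 11.9% and the mouse value 19.1% (exact permutation p = 0.0286, adjusted p = 0.12), so none of the 6 comparisons passed the threshold in either form.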

How the data were processed

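The 6 guinea pig H3K4me3 lists, the 12 guinea pig H3K27ac and H3K4me1 lists and 10 mouse H3K4me3 lists were used. Each deposited guinea pig list gives the peaks of 1 library against the input of the same organ and animal. Its build is Cavpor3.0, as the deposited peak names give it. Most mouse heart H3K4me3 lists have no input of the same animal number in the series. MACS2 is named per the submitters' processing notes. No version, setting or aligner was given in the sources used here. The deposited fold enrichment is the authors' linear ratio of a peak over background, and the deposited −log10 p and −log10 q are those of the authors' caller. Depth is unknown, which limits precision.

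Peaks overlapping by 1 base were joined, classes needed 2 of 3 lists of a tissue, and bases covered were tested as log2 values, centred per library, with limma 3.58.1 (R 4.3.3, robust, Benjamini-Hochberg over 11620 regions). Single values were tested with exact permutation tests over libraries and sign-flip tests over animals. Python 3.11.15, NumPy 2.4.6, SciPy 1.17.1 and Matplotlib 3.10.9 were used. In simulated widths with 200 moved regions, limma called 80 of 100 regions moved by 1 (log2), 96 of 100 moved by 2 and 3 of 11420 unmoved ones. The simulated widths were independent normal values with no shortest width, and far fewer regions were moved than the 3534 called in the data. These counts therefore do not give the rate of false calls among those 3534.

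The animal numbers in the labels pair liver and heart libraries. Deviations of width from the tissue mean correlated with r of 0.03, 0.03 and −0.01 within animals 7, 8 and 9. Named regions were, by rule, the 8 of highest mean fold and the 4 widest of each tissue's own regions, the 6 largest called width differences in each direction with no overlap between tissues, and the 4 largest summit gaps. Members and rules were chosen with earlier results of these data known. Genes, markers and sequences are not reported here.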

Additional observations from a re-analysis of the deposited data

How the results depend on the processing

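Over the alternatives run, 121 of 135 values of the main results kept their direction and their side of the threshold or stayed within 1.5 times of the count reported. Values tested by exact permutation or sign-flip could not change side, since their smallest p is 0.1 or 0.25 and the threshold 0.05. For these only a change of direction could show. With equal numbers of peaks per list heart-only regions numbered 1761 in place of 5876, and the difference between tissues in the share of one-tissue peaks, liver minus heart, changed sign from −17.3 to 0.25 points. Shorter heart lists are how that alternative is built. The 3534 width calls became 2334 with the widest single peak per region, 1182 of them wider in liver, and without centring 492 were wider in liver and 3454 in heart. Leaving out 1 library gave 2214 to 3608 calls, 1171 to 1913 wider in liver and 1043 to 1695 wider in heart. With the animal as a replicate block 3082 regions were called, 2932 of them also called without it and in the same direction. Of these 3082 calls, 1545 were wider in liver and 1537 in heart. The block gave 0.25 as the smallest possible exact p of single values. Of 123 alternative values of the 12 regions named by width, 1 lost its call. None of the 6 regions named for liver could be tested with equal numbers of peaks per list, nor 3 of them with −log10 q of at least 4, since they were then not in all 6 lists. Alternatives that set equal numbers of H3K4me3 peaks, or of H3K27ac and H3K4me1 peaks, for the marks at one-tissue regions were added after seeing the data and gave differences of 70.4 and 84.7 points for H3K27ac at liver-only regions, 43.2 and 31.8 at heart-only regions, and −24.2 and −13.0 for H3K4me1 at heart-only regions. Regions present in all 6 lists exclude those under the threshold in 1 library, so a narrowing to nothing is not in the width test.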

Other observations

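The spans densest in one-tissue regions are listed here, and some span is densest in any set of regions. The span of at most 200 kb with the most liver-only regions, DS562892.1:3858332-3980758, held 9 of them with no heart-only region and 1 shared region. DS562868.1:28212620-28352640 held 8 liver-only regions and no region of the other classes. For heart, DS563175.1:124009-316322 held 15 heart-only regions beside 12 shared ones and 1 liver-only region, and DS562861.1:3642775-3806513 held 14 beside 2 shared ones. These spans were looked for after the data were seen. What genes lie there is not given, and no test was made.

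One-tissue regions lay farther from shared ones than shared regions lay from each other, in the median. The median distance to the nearest shared region on the same scaffold was 35.5 kb for liver-only and 34.4 kb for heart-only regions, against 24.5 kb from a shared region to its nearest neighbour of that class. A shared region lay within 1000 bases of 7.07% of liver-only, 11.8% of heart-only and 13.7% of shared regions.

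Regions found in a single list were short and low. The heart list of animal 9 had 2049 of the 4431, against 611 and 772 in the heart lists of animals 7 and 8 and 605, 286 and 108 in the liver lists of animals 7, 8 and 9. Their median width in that list was 271 bases, and none of the 2049 had a fold above the median of the list.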
